A study of Mus musculus with 9 samples.

Results

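Molecular chaperones of the heat shock protein, DNAJ, CCT and BAG families were followed in primary mouse osteoblasts given parathyroid hormone peptides. The group held 80 genes, read from 90 transcript clusters (sets of probes for a transcript region), of 22180 genes and 23521 clusters that carried a single gene symbol on the array. Genes were selected on their symbol: those beginning with Dnaj, Hspa, Hspd, Hspe, Hsph or Hsp90, and those made of Hspb, Cct or Bag with a number. For the 7 genes with several clusters, the cluster was chosen by its mean level over the 9 arrays, the highest being kept, and no difference between treatments entered that choice. A further 15 clusters carried several symbols, among them a chaperone symbol, and were not read. For that reason Dnaja1, Dnajb8, Dnajc17, Dnajc19 and Hspb2 were not analysed here, nor was Hsp90ab1.

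Osteoblasts, the cells that form bone, were isolated from the calvaria, the roof of the skull, of C57BL/6J mice aged 7 to 10 days. Passage 2 cells were differentiated from day 3 with ascorbic acid and beta-glycerophosphate, kept without serum for 24 h from day 10, and then treated for 4 h in serum-free medium. The groups were vehicle, 100 nM hPTH(1-34), the human parathyroid hormone fragment that activates the parathyroid hormone receptor, and 1 µM bPTH(7-34), an amide of a bovine fragment in which residue 12 is D-tryptophan and residue 34 is tyrosine, known as an antagonist of that receptor. Each group had 3 arrays, and the cells were prepared independently for each replicate. Because the doses differ, any contrast of the peptides is also a contrast of dose. No genotype was varied, and all the groups shared the strain, the culture and the serum withdrawal.

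Chaperones bind proteins that are being made, moved or damaged and help them to fold. HSP70 proteins hold short unfolded stretches in a cycle of ATP binding and hydrolysis: DNAJ proteins, also called HSP40, bring clients and stimulate hydrolysis, whereas HSP110 and BAG proteins release the nucleotide. HSP90 acts on partly folded kinases and receptors, CCT is a ring that folds actin and tubulin, and HSP60 with HSP10 folds proteins inside mitochondria. In bone-forming cells, which secrete large amounts of collagen, the endoplasmic reticulum has its own set, led by the HSP70 protein BiP and the HSP90 protein GRP94. Heat shock factor 1 drives many cytosolic chaperone genes through heat shock elements, arrays of alternating GAA and TTC boxes.

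All values are log2 expression levels after RMA normalisation, and a change is a difference of mean log2 levels, so a change of 1 is a doubling. Array medians ran from 1.67 to 1.76, and correlations over all clusters ran from 0.977 to 0.982 within groups and from 0.972 to 0.985 between groups. The number of arrays, 3 per group, limits the precision. Olfactory receptor genes, which osteoblasts are not known to use, set a limit of background: 95% of the 1105 measured had a vehicle mean under 1.69. In at least 1 group the mean of 73 chaperone genes exceeded this limit, and 7 stayed under it everywhere, namely Hspa1l, Hspb3, Dnajb3, Dnajb7, Dnajc5b, Dnajc5g and Cct6b. Of 10 osteoblast markers 9 were measured, with a summed level of 13.2 to 13.4 in vehicle arrays, 13.2 to 13.5 with hPTH(1-34) and 13.2 to 13.4 with bPTH(7-34). That sum is mostly Col1a1, Col1a2 and Sparc (mean levels 12.28, 11.67 and 10.88), so it says little of the other markers. Alpl had a change of 0.97 with hPTH(1-34), without overlap with vehicle (adjusted p = 0.0601 in limma). Over the 9 markers 5 changes were positive and the median was 0.01. Bglap and Dmp1, markers of late osteoblasts and osteocytes, were under the background limit. Among the lists for other cell types, none of which held a called gene, the 6 adipocyte markers had the highest median change with hPTH(1-34), 0.46. Their summed level was 7.70 to 8.22 with vehicle, 8.12 to 9.01 with hPTH(1-34) and 7.94 to 8.56 with bPTH(7-34). All 6 had a positive change, Lep was under the background limit, and their part in the results below was not tested. The summed level of 8 macrophage markers overlapped in all groups (7.78 to 8.85, 7.11 to 8.91 and 7.30 to 8.52), as did that of 5 osteoclast markers (8.10 to 8.30, 8.07 to 8.28 and 8.11 to 8.32). The macrophage median change was -0.26 with hPTH(1-34), with 2 positive, and -0.25 with bPTH(7-34), with 1 positive. On array 3 of both peptide groups each macrophage marker lay below vehicle array 3. Lyz2 was at 5.37 with hPTH(1-34) and 6.03 with bPTH(7-34) there, against 7.20. The part of these markers in the results below was not tested.

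The first question was which chaperone genes differed after hPTH(1-34). The HSP110 gene Hsph1 and the cytosolic DNAJ gene Dnaja2 rose, and no chaperone gene fell. These were 2 of 80 genes (2.5%), against 0.451% of all clusters tested, at an adjusted p under 0.05 (limma, Benjamini-Hochberg over 23521 clusters). Without adjustment, 19 chaperone genes (23.8%) were higher at p under 0.05 and 1 (1.25%) lower, against 5.53% and 3.78% of all clusters. That count of 19 was 11 without vehicle array 2 and likewise 11 without hPTH(1-34) array 2. Among the 14860 clusters above the background limit, which are closer in level to the chaperones, 7.85% were higher at that p. In 17 genes (21.2%) all 3 hPTH(1-34) arrays lay above all 3 vehicle arrays, against 6.08% of all clusters and 8.12% of those above background. In 2 genes, Hspb7 and Hspe1, they all lay below, against 4.58% of all clusters. The change was positive in 57 genes and negative in 22, with a median of 0.09, whereas 50.1% of all genes had a positive change and their median was 0.00. In cultures of mixed cells, fewer cells of a type and less RNA per cell cannot be told apart.

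**Figure D1:**
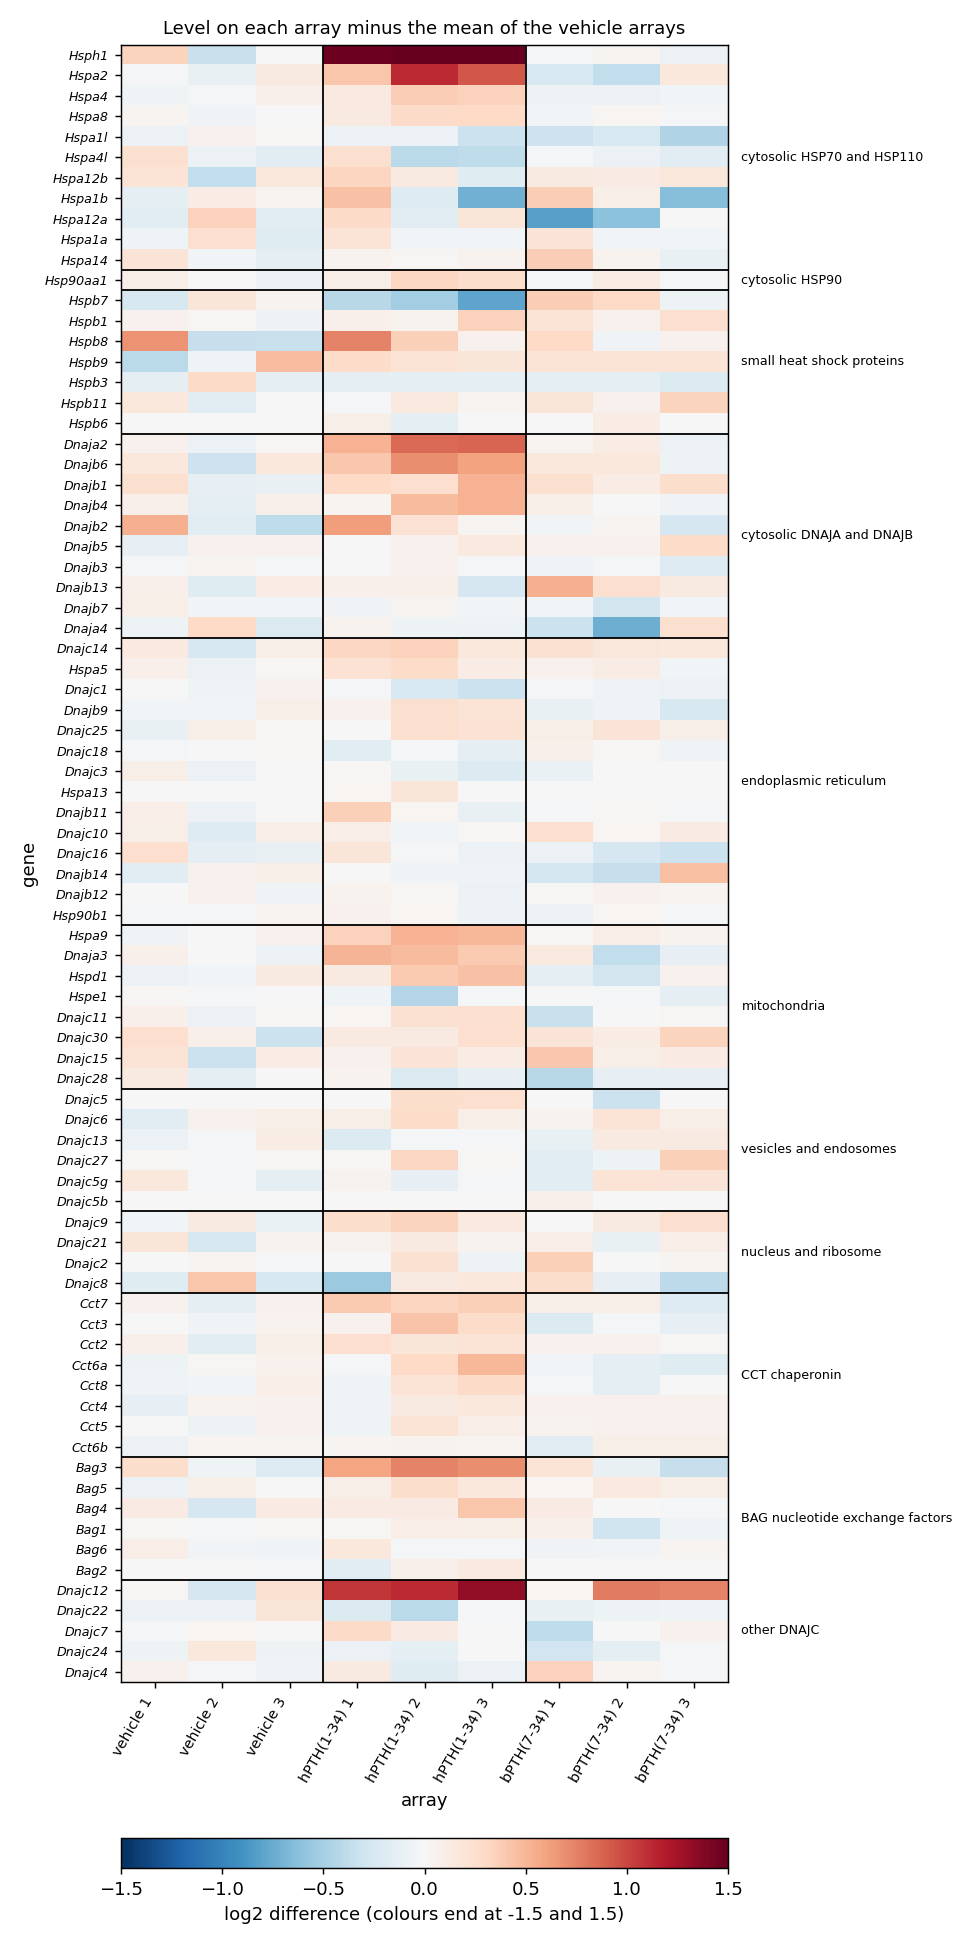
Heat map of the log2 level on each array minus the mean of the 3 vehicle arrays, with 80 chaperone genes in rows by class and 9 arrays in columns; colours end at -1.5 and 1.5, and Hsph1 on hPTH(1-34) arrays 2 and 3 lies past that end. Hsph1, Dnajc12, Dnaja2, Hspa2 and Bag3 stand out on the hPTH(1-34) arrays, Hspb7 is lower there, and the bPTH(7-34) arrays are pale apart from Dnajc12 on arrays 2 and 3 and single values of other genes.

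Promoter windows of 300 bases (250 before and 50 after the annotated start) were found for 66 of the 80 genes in RefSeq, build GRCm38.p6, and 14 had no entry, among them Hsp90aa1, Hspa8, Hspa9 and Dnajc12. The sequences below are those around the motifs of the genes that rose, of the best-known heat shock genes, and of the endoplasmic reticulum genes, to set the letters beside the changes. They are printed from 5′ to 3′ on the strand of the gene, with each match in capitals.
Hsph1, chr5:149636337-149636396, minus strand, before the start: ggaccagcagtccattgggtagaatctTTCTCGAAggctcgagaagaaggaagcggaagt
Hsph1, chr5:149636287-149636316, minus strand, past the start: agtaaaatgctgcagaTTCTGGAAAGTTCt
Hspe1, chr1:55088035-55088094, plus strand, before the start: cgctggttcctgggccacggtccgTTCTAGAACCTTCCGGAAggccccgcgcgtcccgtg
Bag3, chr7:128523603-128523632, plus strand, past the start: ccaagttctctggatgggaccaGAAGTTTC
Hspb1, chr5:135887776-135887835, plus strand, before the start: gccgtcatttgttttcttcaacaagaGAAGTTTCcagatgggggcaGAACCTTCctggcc
Hspa1b, chr17:34959309-34959368, minus strand, before the start: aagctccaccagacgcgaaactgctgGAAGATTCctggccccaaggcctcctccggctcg
Dnaja2, chr8:85555362-85555421, minus strand, before the start: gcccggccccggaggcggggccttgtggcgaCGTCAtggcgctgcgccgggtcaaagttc
Hspa5, chr2:34772004-34772063, plus strand, before the start: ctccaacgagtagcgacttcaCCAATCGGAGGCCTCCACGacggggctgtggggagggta
Hsp90b1, chr10:86705618-86705677, minus strand, before the start: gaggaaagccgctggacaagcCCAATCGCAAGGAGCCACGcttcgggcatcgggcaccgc
Dnajc3, chr14:118937806-118937865, plus strand, before the start: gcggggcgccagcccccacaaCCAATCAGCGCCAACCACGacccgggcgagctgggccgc

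In the first 6 of these the capitals mark a heat shock element core, GAANNTTC or TTCNNGAA, which reads as such on both strands. It was in the windows of 19 of 66 chaperone genes (28.8%), against 17% of 27025 genes. Where windows are described, all genes means these 27025. A gene with several annotated starts was counted if any of its windows matched, and the part of the number of windows was not tested. The median change with hPTH(1-34) was 0.11 in the 19 genes with the core and 0.07 in the 47 without it. Hsph1 was the only one of the 19 that was called, and 1 of the 47 was. At an unadjusted p under 0.05 in limma, 6 of the 19 and 9 of the 47 were higher, against 5.53% of all clusters. Hspa1a, Hspa1b, Hspb1 and Hspe1, which also hold the core, were not among the called genes. A longer run of 3 alternating boxes, GAANNTTCNNGAA or TTCNNGAANNTTC, was chosen after the values were known. It was in 4 windows (6.06%), those of Hsph1, Dnajb6, Hspd1 and Hspe1, against 0.662% of all genes. Hspe1 and Hspd1, the genes of HSP10 and HSP60, lie head to head on opposite strands of chromosome 1, and the printed run stands in both windows. Their changes with hPTH(1-34) were -0.18 and 0.32.

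The full cAMP response element TGACGTCA was in 1 window (1.52%), that of Dnajc27, against 2.03% of all genes. Its short form, TGACG or CGTCA on the other strand, which the full element also holds, was in 34 windows (51.5%), against 23% of all genes, and is the capital run of Dnaja2 above. The windows of the chaperone genes were richer in G and C, with a median of 61.9% against 52.8% over all genes, and the part of base composition in these shares was not tested. The median change with hPTH(1-34) was 0.13 in the 34 genes with the short form and 0.05 in the 32 without it. The endoplasmic reticulum stress element, CCAAT followed after 9 bases by CCACG, read on both strands, was in 3 windows (4.55%), those of Hspa5, Hsp90b1 and Dnajc3, against 0.137% of all genes. A match is a string of letters and was not tested for binding.

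Hsph1 encodes HSP105, an HSP110 protein that exchanges the nucleotide of HSP70 and keeps unfolded proteins soluble. Its log2 level was 5.77, 5.10 and 5.43 with vehicle, 6.90, 7.54 and 7.19 with hPTH(1-34), and 5.40, 5.47 and 5.34 with bPTH(7-34). The hPTH(1-34) arrays lay more than 1 log2 unit above every other array, and the vehicle and bPTH(7-34) arrays overlapped. Hsph1 rose 3.43-fold with hPTH(1-34) (a change of 1.78 ± 0.19, SE, with 3 arrays per group and an adjusted p = 0.0112), the 22nd highest change of 22180 genes with 1 cluster each. It had the widest range of any chaperone gene over the 9 arrays, 2.44.

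Other cytosolic HSP70 genes showed smaller differences, and none passed the test. Hspa2, an HSP70 gene best known from male germ cells, was at 4.43, 4.33 and 4.58 with vehicle, 4.86, 5.56 and 5.38 with hPTH(1-34), and 4.22, 4.08 and 4.61 with bPTH(7-34). Its hPTH(1-34) arrays lay above all the others, with a change of 0.82 ± 0.19 (adjusted p = 0.159). Hspa8, the constitutive HSP70, was at 10.43, 10.34 and 10.40 with vehicle and 10.52, 10.68 and 10.69 with hPTH(1-34) (0.24 ± 0.08, adjusted p = 0.402). These groups did not overlap, but the difference was small. Its 3 dimmer clusters gave changes of 0.11 to 0.16 in the same direction, with overlapping groups. With bPTH(7-34) these clusters gave 0.02 to 0.13, against -0.01 in the brightest cluster. Hspa4, a further HSP110 gene, had a change of 0.29 ± 0.09 (adjusted p = 0.331), again without overlap.

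The classical heat-inducible HSP70 genes had changes near 0. Hspa1b was at 5.44, 5.69 and 5.62 with vehicle, 6.02, 5.39 and 4.86 with hPTH(1-34), and 5.95, 5.67 and 4.94 with bPTH(7-34). Its treated arrays spread on both sides of the vehicle arrays, the change with hPTH(1-34) was -0.16 with a 95% interval from -0.86 to 0.54, and both peptide groups had their highest value on array 1 and their lowest on array 3. Hspa1a, its near-identical neighbour, was close to the background limit on all arrays (1.49 to 1.92, change 0.04), and probes may not separate the pair. The testis gene Hspa1l was under the background limit, with a change of -0.16. In the whole class of 11 HSP70 and HSP110 genes, 1 rose, 8 had a positive change and the median was 0.09. Of all clusters 0.451% were called, and of all genes 50.1% had a positive change.

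**Figure D2:**
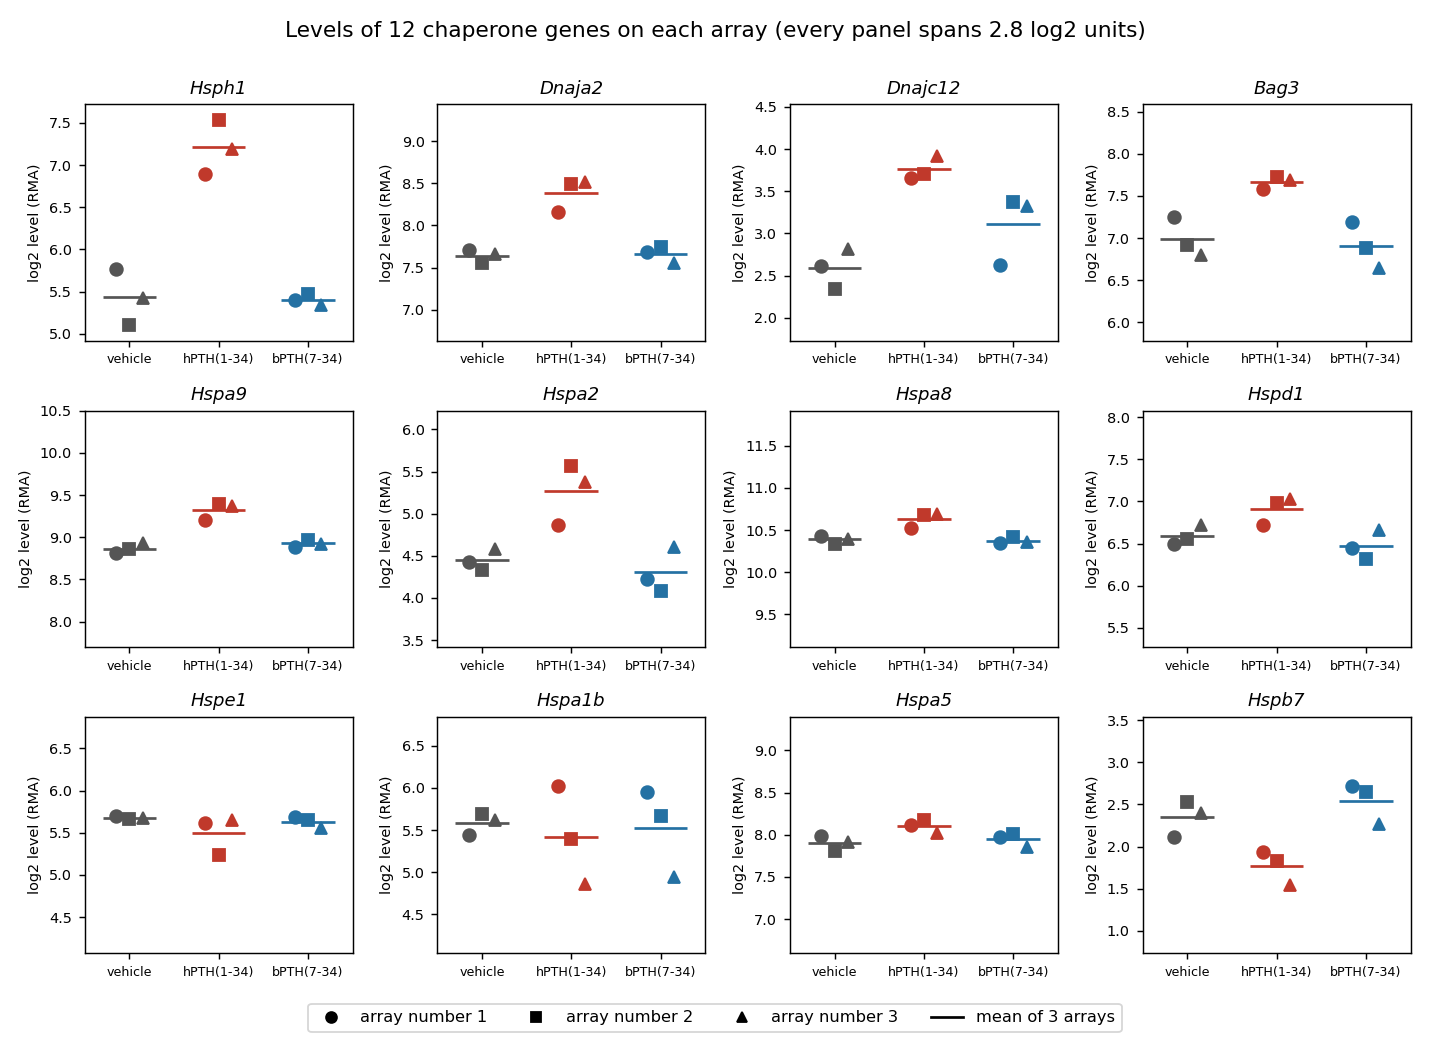
Log2 level (RMA) of 12 chaperone genes on each array, by treatment; symbols mark the array number, lines the mean of 3 arrays, and each panel spans the same log2 range. The hPTH(1-34) arrays lie above all others in Hsph1, Dnaja2, Dnajc12, Bag3, Hspa9, Hspa2, Hspa8 and, only just, Hspa5. They lie below all others in Hspb7, and among them in Hspa1b.

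Dnaja2 encodes a cytosolic HSP40 that pairs with HSP70 in refolding. Its level was 7.71, 7.56 and 7.66 with vehicle, 8.16, 8.49 and 8.52 with hPTH(1-34), and 7.69, 7.75 and 7.55 with bPTH(7-34). No hPTH(1-34) array overlapped another group. Dnaja2 rose 1.68-fold (0.75 ± 0.12, n = 3 per group, adjusted p = 0.0378). With a term for the array number added to the limma fit, it was not called (adjusted p = 0.0617). Its relatives did not pass the test. Dnajb6, known for holding back protein aggregation, had a change of 0.57 ± 0.15 (adjusted p = 0.204), and Dnajb1, the HSP40 most used as a readout of heat shock, of 0.36 ± 0.13 (adjusted p = 0.399), both without overlap of the groups. Dnajb6 was at 3.09, 2.63 and 3.09 with vehicle and 3.34, 3.63 and 3.54 with hPTH(1-34), and Dnajb1 at 4.61, 4.25 and 4.26 and then 4.67, 4.62 and 4.90. Without vehicle array 2 the change of Dnajb6 was 0.41. Dnajb13 (change -0.03), a gene of motile cilia and sperm tails, had a mean near background, and Dnajb3 (0.02) and Dnajb7 (-0.02) were under it. In the 10 cytosolic DNAJA and DNAJB genes, 1 rose, 7 had a positive change and the median was 0.18. The shares over the whole array were 0.451% of clusters called and 50.1% of genes with a positive change.

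Neither call held in every fit that left out an array, although such a fit also has fewer arrays to test with. Hsph1 was no longer called without vehicle array 2 (adjusted p = 0.0673), vehicle array 3 (0.0805), hPTH(1-34) array 2 (0.0693) or hPTH(1-34) array 3 (0.073), with changes of 1.61 to 1.79. Dnaja2 was called in 1 of the 9 fits that left out an array, that without hPTH(1-34) array 1. Its adjusted p was 0.0731, 0.192 and 0.155 without vehicle arrays 1, 2 and 3, 0.179 without hPTH(1-34) array 2 and likewise without array 3, and 0.0767, 0.0718 and 0.0614 without bPTH(7-34) arrays 1, 2 and 3. Its change was then 0.68 to 0.78. Without hPTH(1-34) array 1, Hspa2 (adjusted p = 0.0307) and the mitochondrial gene Hspa9 (0.0425) were called as well, and without bPTH(7-34) array 1 Dnajc12 was (0.0365). With the 6 arrays of the comparison alone, the adjusted p was 0.0989 for Hsph1 and 0.148 for Dnaja2, and over all 41345 clusters of the table it was 0.0436 and 0.112.

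Dnajc12, a DNAJ gene whose protein attends the aromatic amino acid hydroxylases, had the second highest change of the 80 genes, above that of Dnaja2. Its level was 2.61, 2.34 and 2.81 with vehicle, 3.66, 3.71 and 3.92 with hPTH(1-34), and 2.62, 3.37 and 3.33 with bPTH(7-34). All hPTH(1-34) arrays lay above the rest, and of the bPTH(7-34) arrays 2 and 3 lay between the groups and array 1 within vehicle. The change was 1.18 ± 0.20 with hPTH(1-34) (adjusted p = 0.0536), just short of the threshold. With a term for the array number added to the limma fit the adjusted p was 0.046, so the call depends on the fit. Of the other members of its class, Dnajc22 had a change of -0.21 (-0.12 without vehicle array 3 and -0.11 without hPTH(1-34) array 2), and Dnajc7, which links HSP70 to HSP90, of 0.14. Among these 5 DNAJC genes of other roles none was called, and the median was -0.05.

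Bag3 joins HSP70 to the small heat shock proteins and to autophagy, and is a known target of heat shock factor 1. Its level was 7.25, 6.92 and 6.80 with vehicle, 7.58, 7.73 and 7.69 with hPTH(1-34), and 7.19, 6.88 and 6.64 with bPTH(7-34). All hPTH(1-34) arrays lay above the rest, by the least against array 1 of the other groups. The change was 0.68 ± 0.16 (adjusted p = 0.155). All 6 BAG genes had a positive change with hPTH(1-34), with a median of 0.12, although that of Bag2 turned negative when the arrays were quantile normalised again. None of the 6 was called, and after Bag3 the next were Bag5, which is known to bind HSP70 and parkin (0.17), and Bag4 (0.22), both with overlapping groups. Without vehicle array 2 the change of Bag4 was 0.10.

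Hsp90aa1, the stress-responsive cytosolic HSP90, was at 5.34, 5.26 and 5.16 with vehicle and 5.34, 5.56 and 5.52 with hPTH(1-34). These groups met at array 1, and the change was 0.22 ± 0.10 (adjusted p = 0.533). The small heat shock proteins form oligomers that hold unfolded proteins until HSP70 takes over. In this class of 7 genes none was called and 4 had a positive change. Hspb7, a small heat shock protein known from heart and muscle, was at 2.11, 2.53 and 2.40 with vehicle, 1.93, 1.83 and 1.55 with hPTH(1-34), and 2.72, 2.65 and 2.27 with bPTH(7-34). Its hPTH(1-34) arrays lay below all the others, near the background limit, with a change of -0.58 ± 0.16 (adjusted p = 0.249). Hspb1, the gene of HSP27, lay between 2.43 and 2.85 on all arrays, with a change of 0.16. Hspb8, which works with Bag3, had a change of 0.39 ± 0.27, its vehicle array 1 (5.77) lying far above the other vehicle arrays (4.76 and 4.77), and of 0.72 without that array. Without vehicle array 2 or 3, or hPTH(1-34) array 1, the change of Hspb8 was 0.21 to 0.22. Hspb11, a subunit of the transport machinery of cilia, had a change of 0.06.

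In mitochondria, 3 of the 8 genes differed at an unadjusted p under 0.05, all upward, and none was called. Of all clusters, 5.53% were higher at that p, and 7.85% of those above background. Hspa9 encodes mortalin, the mitochondrial HSP70, which pulls proteins in through the inner membrane. It was at 8.81, 8.86 and 8.93 with vehicle, 9.21, 9.39 and 9.37 with hPTH(1-34), and 8.89, 8.97 and 8.92 with bPTH(7-34). The hPTH(1-34) arrays lay above all the others with little spread (0.46 ± 0.09, adjusted p = 0.0714). Dnaja3, its DNAJ partner, was at 5.14, 5.07 and 4.97 with vehicle and 5.57, 5.53 and 5.45 with hPTH(1-34) (0.46 ± 0.13, adjusted p = 0.258). Both partners had a change of 0.46 in their brightest cluster. The 2 dimmer clusters of Dnaja3, under the background limit, gave -0.10 and -0.01, and the mean of its 3 clusters 0.12.

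The chaperonin pair of the mitochondrion had changes of opposite sign, a contrast that was not tested. Hspd1, the gene of HSP60, was at 6.50, 6.55 and 6.72 with vehicle and 6.72, 6.98 and 7.03 with hPTH(1-34), a change of 0.32 ± 0.12 (adjusted p = 0.456), and the groups met at 6.72. Hspe1, the gene of HSP10, was at 5.70, 5.66 and 5.68 with vehicle and 5.61, 5.24 and 5.65 with hPTH(1-34), a change of -0.18 ± 0.12 (adjusted p = 0.693). Its hPTH(1-34) arrays all lay below vehicle, but arrays 1 and 3 only just, and without array 2 the change was -0.05. Dnajc28 had a change of -0.10. The class median was 0.17, with 6 of 8 changes positive.

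**Figure D3:**
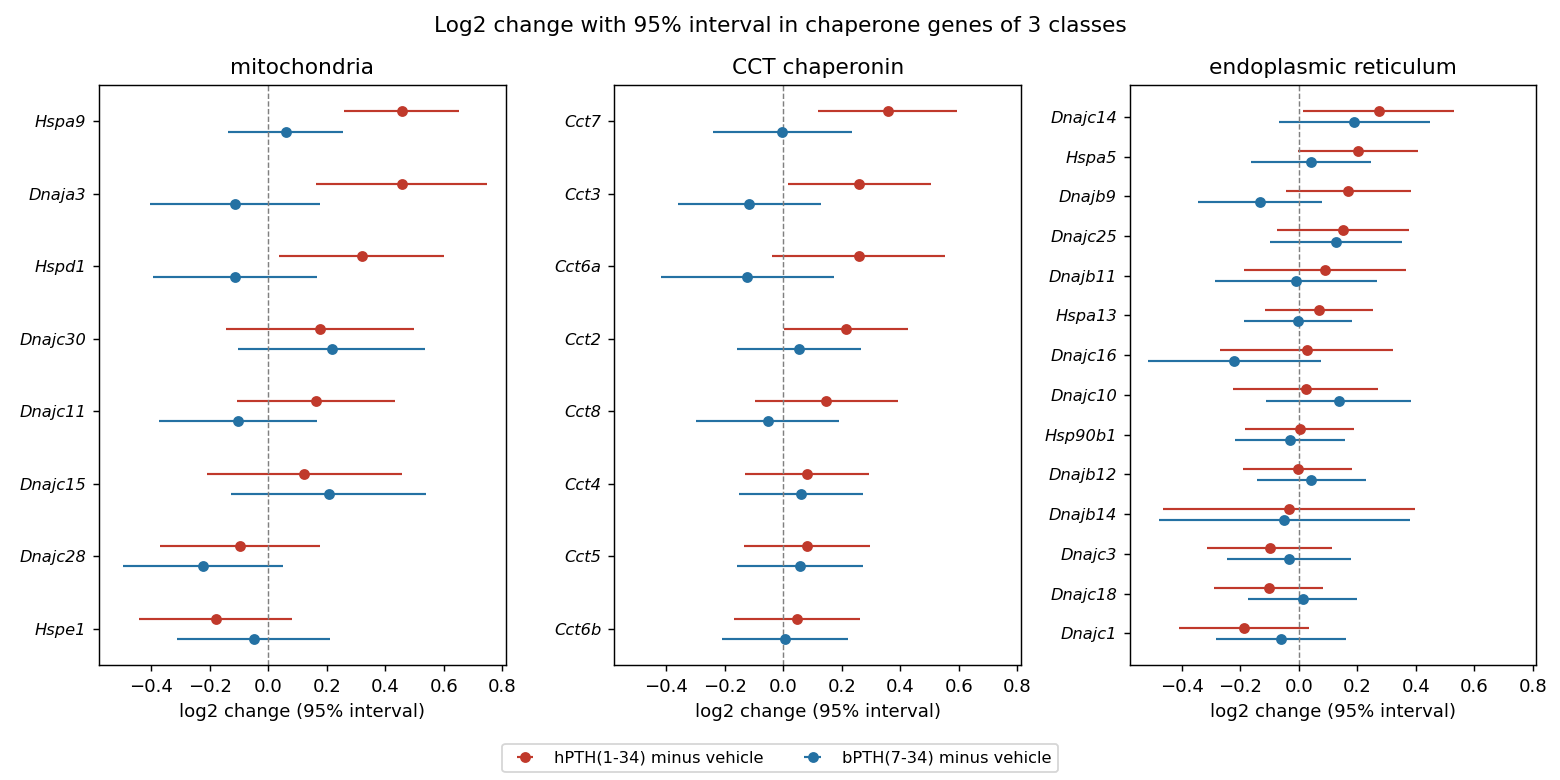
Log2 change with its 95% interval (limma, 3 arrays per group) of the genes of mitochondria, the CCT chaperonin and the endoplasmic reticulum, for hPTH(1-34) minus vehicle in red and bPTH(7-34) minus vehicle in blue. The red intervals of Hspa9, Dnaja3, Hspd1, Cct7, Cct3, Cct2 and Dnajc14 lie above 0, and every blue interval of these classes includes 0.

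The CCT chaperonin is a double ring of different subunits that folds newly made actin and tubulin. All 8 CCT genes had a positive change with hPTH(1-34), from 0.05 to 0.36 with a median of 0.18, also after a second quantile normalisation, and none was called. Cct7 was at 6.59, 6.40 and 6.60 with vehicle and 6.92, 6.85 and 6.89 with hPTH(1-34) (0.36 ± 0.11, adjusted p = 0.288). Cct3 was at 7.33, 7.28 and 7.38, and then 7.40, 7.76 and 7.61 (0.26 ± 0.11, adjusted p = 0.494). Cct2 was at 8.09, 7.84 and 8.10, and then 8.26, 8.19 and 8.22 (0.21 ± 0.09, adjusted p = 0.532). In these 3 subunits the hPTH(1-34) arrays lay above all vehicle arrays, against 6.08% of all clusters and 8.12% of those above background, but without vehicle array 2 the change of Cct2 was 0.13. The others overlapped, among them Cct8 at 0.15 and the testis subunit Cct6b, under background, at 0.05. Cct6a had a second, dimmer cluster, with changes of 0.67 with hPTH(1-34) and 0.47 with bPTH(7-34), against 0.26 and -0.12 in the brighter cluster. The 0.26 of the brighter cluster was 0.40 without hPTH(1-34) array 1 and 0.13 without array 3. Tcp1, the first subunit, whose symbol lies outside the family name, had a change of 0.13.

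The endoplasmic reticulum held the most genes of any class, 14, and the changes there were small. Hspa5, the gene of BiP, was at 7.98, 7.81 and 7.92 with vehicle, 8.12, 8.18 and 8.02 with hPTH(1-34), and 7.97, 8.01 and 7.86 with bPTH(7-34). The hPTH(1-34) arrays lay just above all the others (0.20 ± 0.09, adjusted p = 0.538). Hsp90b1, the gene of GRP94, was at 10.99, 10.99 and 11.05 with vehicle and 11.07, 11.04 and 10.93 with hPTH(1-34). Its change of 0.00 had a 95% interval from -0.18 to 0.19. Dnajc3, an inhibitor of the kinase PERK that shares the stress element with both, had a change of -0.10. The 3 genes whose windows hold that element thus had changes of -0.10 to 0.20.

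Dnajb9, the BiP cochaperone ERdj4, had a change of 0.17 ± 0.09, and Dnajc1, a membrane-bound ribosome partner, of -0.19 ± 0.10. Dnajc14 was at 5.81, 5.43 and 5.76 with vehicle and 5.98, 6.01 and 5.83 with hPTH(1-34) (0.27 ± 0.11, adjusted p = 0.496), without overlap, but its change was 0.16 without vehicle array 2. Dnajc16 had a change of 0.03. Over the 14 genes, 9 changes were positive and the median was 0.03. After a second quantile normalisation 6 were positive, since Dnajc10, Dnajc16 and Hsp90b1 turned, and the median was -0.01.

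**Figure D4:**
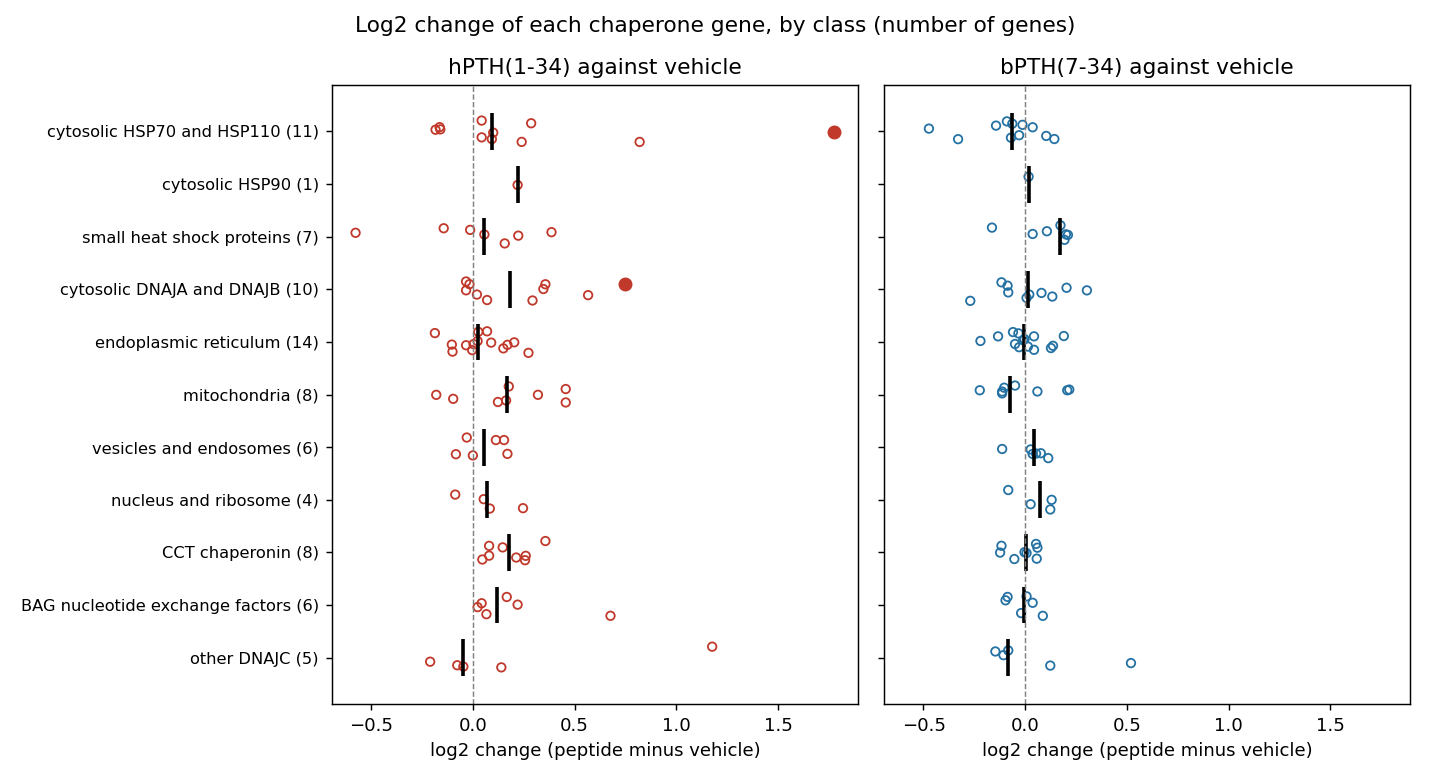
Log2 change of each of 80 chaperone genes by class, with hPTH(1-34) minus vehicle on the left and bPTH(7-34) minus vehicle on the right; filled points passed an adjusted p of 0.05, and bars mark class medians. Hsph1 (1.78) and Dnaja2 (0.75) are the filled points, all points of the CCT and BAG classes lie above 0 on the left, and the points on the right lie between -0.47 and 0.52.

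The classes for vesicles and for the nucleus and ribosome held no called gene. Dnajc5, the cysteine string protein of secretory vesicles, had a change of 0.17, and Dnajc6, the auxilin that uncoats clathrin vesicles, of 0.15. Dnajc13, an endosome protein, had a change of -0.08. In the nucleus, the histone chaperone gene Dnajc9 was at 4.29, 4.47 and 4.23 with vehicle and 4.59, 4.66 and 4.48 with hPTH(1-34), without overlap (0.25 ± 0.11, adjusted p = 0.51). Dnajc21 and Dnajc2, both ribosome-linked, had changes of 0.08 and 0.05. The class medians were 0.06 for 6 vesicle genes and 0.07 for 4 nuclear and ribosomal genes.

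The second question was whether these genes differed after bPTH(7-34). None of the 80 was called against vehicle in limma, and 0% of all clusters were. At an unadjusted p under 0.05, 1 gene was higher, Dnajc12, against 1.86% of clusters, and 1 lower, Hspa1l, against 1.45%. Dnajc12 had a change of 0.52, with a 95% interval from 0.06 to 0.98, and of 0.76 without bPTH(7-34) array 1. Hspa1l, under background in all groups, had a change of -0.33. The groups did not overlap in 3 genes with a positive change (Hspb1, Dnajb13 and Dnajc14), against 2.9% of clusters, and in 3 with a negative change (Hspa1l, Dnajb9 and Dnajc5), against 2.39%. These shares, 3.75% each, are near those of all clusters. The changes were positive in 42 genes and negative in 38, with a median of 0.01. For Hsph1 the change was -0.03 with an interval from -0.46 to 0.40, and for Dnaja2 0.02 with an interval from -0.24 to 0.28.

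The third comparison set the peptides against each other, at their different doses. It shares the hPTH(1-34) arrays with the first comparison, so both rest on the same 3 high arrays. Hsph1 was higher with hPTH(1-34) by 1.81 (adjusted p = 0.0112) and Dnaja2 by 0.73 (adjusted p = 0.0382). These were the 2 called genes of 80, against 0.463% of all clusters. Unadjusted, 18 genes (22.5%) were higher at p under 0.05 and 2 lower (Hspb7 and Dnajb13), against 5.3% and 4.22% of clusters. Hsph1 lost its call without hPTH(1-34) array 2 (0.0717) or 3 (0.0788), without bPTH(7-34) array 2 (0.0526) or 3 (0.0653), with the 6 arrays alone (0.0721) and over all clusters (0.0511). Dnaja2 kept its call in 1 of the 9 fits without an array, that without hPTH(1-34) array 1. Its adjusted p was 0.0652, 0.0731 and 0.0805 without vehicle arrays 1, 2 and 3, 0.161 and 0.155 without hPTH(1-34) arrays 2 and 3, and 0.113, 0.0996 and 0.149 without bPTH(7-34) arrays 1, 2 and 3. Hspa2 was called without hPTH(1-34) array 1 (0.0178).

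The genes next in order of p were short of the threshold. The difference between the peptides was 0.96 for Hspa2 (adjusted p = 0.0867), 0.76 for Bag3 (0.0942) and -0.78 for Hspb7 (0.0951). It was 0.40 for Hspa9 (0.111) and 0.57 for Dnaja3 (0.127). For Dnajc12 the difference was 0.66 (0.3), less than against vehicle, since its bPTH(7-34) level was itself above vehicle on 2 arrays. All 8 CCT genes were again higher, with a median of 0.18, although Cct4 and Cct5 turned negative after a second quantile normalisation. The class medians were 0.20 for cytosolic DNAJA and DNAJB and for mitochondria, and 0.03 for the endoplasmic reticulum.

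Partners of these chaperones were read from the same fit. Of 4 genes measured, those of the heat shock factors Hsf2, Hsf4 and Hsf5 and of the factor-binding protein Hsbp1, none was called. In 2 of these the change was positive, and Hsf1 was not analysed here. Hsf5, under the background limit, had a change of -0.20, and Hsbp1, which binds heat shock factor 1, of -0.12. Of 21 cochaperones of HSP90 and HSP70, none was called, 13 had a positive change and the median was 0.10. Those with the smallest p were Unc45a, a myosin chaperone (0.32 ± 0.14, adjusted p = 0.495), and Cdc37l1 (0.22 ± 0.10, adjusted p = 0.544), both without overlap, and without vehicle array 2 the change of Cdc37l1 was 0.12. Of 11 partners in the mitochondrion and endoplasmic reticulum, none was called and 8 had a positive change. The protease gene Clpp had a change of 0.40 ± 0.16 (adjusted p = 0.449), or 0.26 without vehicle array 2, and Grpel1, the nucleotide exchange factor of Hspa9, of 0.35 ± 0.14 (adjusted p = 0.474).

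Of 9 CCT partners none was called and 5 had a positive change, with a median of 0.00. The prefoldin genes Pfdn1 and Pfdn2, which hand actin and tubulin to CCT, had changes of -0.18 and 0.19. The 4 other stress chaperones held no call, with Cryab, the gene of alpha-B-crystallin, at -0.37 ± 0.16 (adjusted p = 0.537) and Gak at 0.08. A list of 20 measured genes of the heat shock response had 1 call, Hsph1, against 0.451% of all clusters. All 20 are also in the classes or partner lists above, so the list adds no new gene. In it 13 changes were positive and 7 negative with hPTH(1-34), with a median of 0.11, and with bPTH(7-34) 9 were positive and 11 negative, with a median of -0.02.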

How the data were processed

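Expression was measured on 9 Affymetrix Mouse Gene 2.0 ST arrays. The authors deposited log2 values per transcript cluster, made with Affymetrix Expression Console and RMA per the submitters' processing notes (versions not given in the sources used here), and no scanner files were used here. Of 41345 clusters, 23521 had a single symbol in the platform annotation, 1814 several and 16010 none. Replicates were not pooled, per the labels.

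Differences were tested in a single limma 3.58.1 fit (R 4.3.3; lmFit, eBayes) with a mean for each group and no other term over the 9 arrays; tests were two-sided, adjusted by Benjamini and Hochberg's method over 23521 clusters, at a threshold of 0.05 (6 residual and 3.20 prior degrees of freedom). Errors beside changes are SE of this fit. The fit was tested on simulated data with independent noise on each array, so deviations shared by array number were not simulated. Arrays have no read depth.

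Classes are assigned by the known compartment of each protein. The marker sums are log2 of summed linear values, and the list for blood cells was not analysed here. Named genes were those called, per class the 3 smallest p for hPTH(1-34) against vehicle and the smallest in the other comparisons, 20 fixed genes, the 5 widest ranges, the 3 highest and 3 lowest levels, and 2 per partner list; others named were chosen after their values were seen. The members and lists were chosen with earlier results of these data known. Promoter windows came from RefSeq, with matching done in Python 3.11.15, and figures were drawn with matplotlib 3.10.9. Alternatives were the array number as a block, other scalings, filters, cluster sets, priors, array weights, the 6 arrays of a comparison, and each array left out.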

Additional observations from a re-analysis of the deposited data

How the results depend on the processing

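The count of chaperone genes called for hPTH(1-34) against vehicle was 2. It was 4 with clusters of a mean log2 of at least 3, where Dnajc12 and Hspa9 were added, 4 with array weights, 1 over all clusters, and 0 with the 6 arrays of the comparison. Leaving out an array gave 0 to 4. For hPTH(1-34) against bPTH(7-34) the count was 2 as well. It was 5 at a mean log2 of at least 5, 4 at a mean of at least 3, 3 with array weights, 0 over all clusters, 0 with 6 arrays, and 0 to 3 without an array. For bPTH(7-34) against vehicle it was 0 under every alternative run. Over the 21 alternatives the median change ran from 0.06 to 0.15 for hPTH(1-34) against vehicle, from -0.03 to 0.03 for bPTH(7-34) against vehicle and from 0.05 to 0.16 between the peptides. For the 47 genes named by the rule, no called change turned its sign in the 3 comparisons, and summed over the alternatives a call was lost 33 times and gained 18 times.

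The array numbers in the labels were not taken as pairs, since the labels do not say that a preparation was divided among the treatments. Arrays of the same number did deviate together, with positive correlations over all clusters for every pair of groups. These were 0.0646 to 0.0724 for number 2 and 0.174 to 0.364 for numbers 1 and 3, so a pairing is possible. With the replicate block, 2 genes were called for hPTH(1-34) against vehicle, Hsph1 (adjusted p = 0.0298) and Dnajc12 (0.046), whereas Dnaja2 was at 0.0617. For hPTH(1-34) against bPTH(7-34) the block left 1 call, Hsph1, with Dnaja2 at 0.066. With the array number as a random effect, 3 genes were called against vehicle, Hsph1 (0.00936), Dnaja2 (0.0309) and Dnajc12 (0.0399), and 2 between the peptides, Hsph1 (0.00934) and Dnaja2 (0.0314). Of the 9 arrays 8 deviated most like an array of their own number, vehicle array 2 being the exception, which is a hint from the data and not from the design. The cause of these shifts was not tested. Of the 80 chaperone genes 7 (8.75%) had the same value on at least 5 of 9 arrays, as had 9.98% of all clusters. Among them Hspb3 and Dnajc5b were under the background limit. Hspa13 (mean level 6.74), Bag4 (4.93), Hspb6 (4.21) and Bag2 (2.94) lay above it. Such repeated values limit what can be read of these genes, and their cause was not tested.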
